A study of Mus musculus with 10 samples.

Results

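The 47 genes described here encode the subunits, activators, inhibitor and assembly chaperones of the mouse proteasome. They are defined by symbol, as the protein-coding genes of the GENCODE M21 annotation (mm10 build) on chromosomes 1 to 19 whose names are Psm, a letter from a to g and digits, and they are 47 of 20807 protein-coding genes on those chromosomes. Of these, 42 were taken as constitutive and 5 as specialised, which are the immunoproteasome subunits Psmb8, Psmb9 and Psmb10, the thymus subunit Psmb11 and the testis subunit Psma8. The constitutive class is every member outside these 5, so it includes the interferon-inducible activators Psme1 and Psme2.

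The cells were F123, an F1 hybrid mouse embryonic stem cell line from a cross between castaneus and S129/SvJae mice. The culture medium held LIF and knockout serum replacement, and irradiated CF1 fibroblasts served as feeders until the last passage, which was made on gelatin alone. A single untreated condition was measured, by ChIP-seq against H3K4me3, a histone mark of active promoters, and by ATAC-seq, which finds open chromatin. Each assay is represented by 1 list of peaks that stands for 2 replicates, 33487 peaks for H3K4me3 and 179109 for ATAC-seq, and neither list separates the parental alleles.

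The proteasome is the protease that degrades ubiquitin-tagged proteins. Its 20S core is a barrel of alpha rings, which form the gate, and beta rings, which hold the catalytic sites, and its 19S cap unfolds substrates with a ring of ATPases. In immune cells, or after interferon, the catalytic subunits Psmb6, Psmb7 and Psmb5 can be replaced by Psmb9, Psmb10 and Psmb8, and the resulting immunoproteasome makes peptides suited for display on MHC class I. Psmb11 takes the place of Psmb5 in thymic cortical epithelium, and Psma8 takes that of Psma7 in male germ cells.

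The lists carry no read counts, so the depth of the libraries is unknown, and a single list per assay gives no spread between replicates. No difference below was therefore tested, and the values are given as a description of these lists. Of 8 embryonic stem cell markers, 7 (87.5%) had an H3K4me3 peak within 1 Kb of the gene start, with Esrrb the one without. All 8 had an ATAC-seq peak there, against 72.2% of all autosomal coding genes. Feeder fibroblast markers had an H3K4me3 peak at 5 of 8 genes (62.5%), near the 66.4% of all autosomal coding genes. Their fold enrichments ran from 3.39 at Dcn to 20.4 at Col1a2, and 0 of 4 blood and immune markers had an H3K4me3 peak. The part of feeder cells in the peaks of the proteasome genes was not tested.

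Most proteasome genes were marked and open at their start. An H3K4me3 peak lay within 1 Kb of the start in 43 of 47 genes (91.5%), against 66.4% of all autosomal coding genes. An ATAC-seq peak lay there in 45 of 47 (95.7%), against 72.2%, and both kinds were present in 43 (91.5%), against 65.6%. None of the 43 had H3K4me3 without ATAC-seq, which was also rare in coding genes with H3K4me3 (1.21%). Among constitutive members the H3K4me3 share was 39 of 42 (92.9%, 95% Wilson interval 81.0% to 97.5%) and the ATAC-seq share 40 of 42 (95.2%, 84.2% to 98.7%), where the intervals cover counting error only. Among specialised members the counts were 4 of 5 and 5 of 5. The start itself lay inside an ATAC-seq peak in 41 of 47 genes (87.2%), against 63.6% of coding genes, and this share was 38 of 42 in constitutive and 3 of 5 in specialised members.

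**Figure D1:**
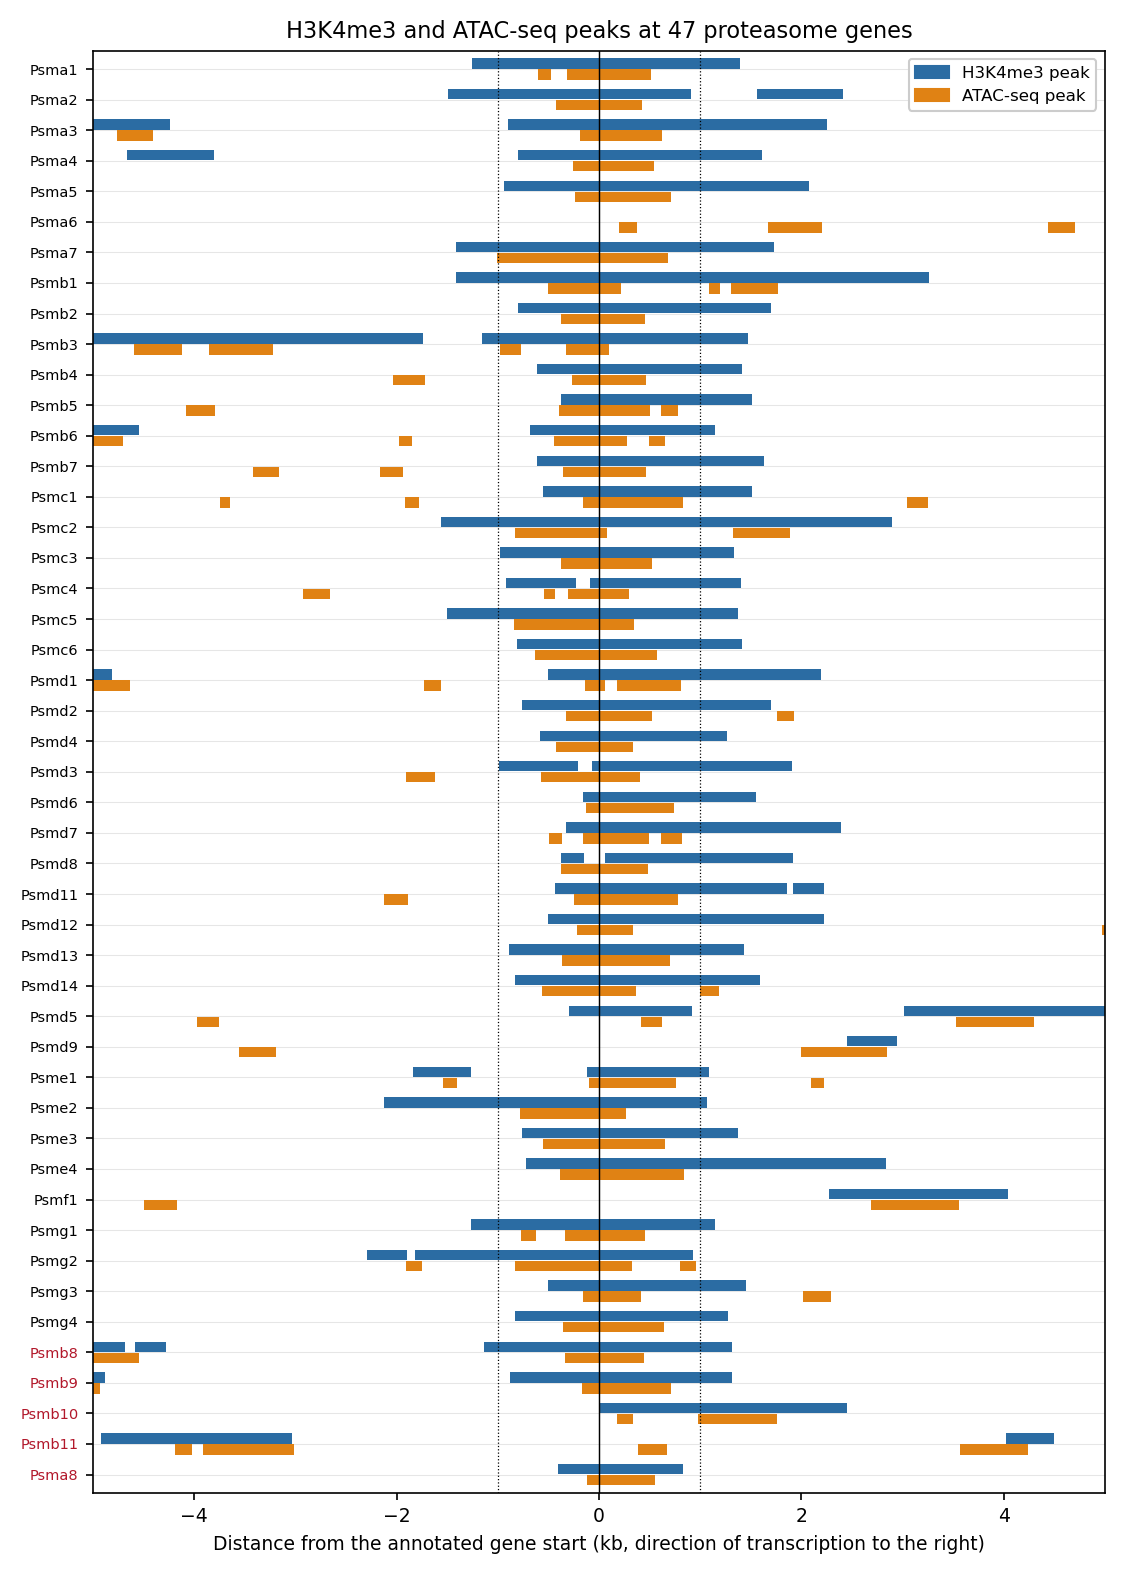
Each line is a proteasome gene, aligned at its annotated start (0) with transcription to the right and distance in Kb on the horizontal axis. Blue bars are H3K4me3 peaks, orange bars are ATAC-seq peaks, dotted lines mark 1 Kb on either side, and specialised genes are named in red. Peaks of both kinds cover the start in most lines, while Psma6, Psmd9, Psmf1 and Psmb11 have no H3K4me3 peak within 1 Kb and the Psmb10 H3K4me3 peak reaches only 4 bp upstream of the start, with both its ATAC-seq peaks downstream.

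The constitutive genes had high H3K4me3 enrichment, and the specialised genes, apart from Psmb10, had low enrichment. Fold enrichment is the peak caller's ratio of ChIP signal over background, taken here from the strongest peak within 1 Kb. Its median was 42.25 in the 39 constitutive members with a peak (range 11.3 to 70.5, middle 50% 37.1 to 48.1), 13.6 in the 4 specialised members with a peak (8.49 to 39.6) and 31.0 in the 13806 coding genes with a peak (middle 50% 20.6 to 40.5). Of the 39 constitutive members, 37 were above the coding-gene median, as were 1 of the 4 specialised members and, by definition, 50.0% of coding genes. The significance that the peak caller gave, as −log10 of the q-value, had medians of 714.6, 143.1 and 461.6 in the same order. Peak width differed less, with medians of 2399 bp, 2323.5 bp and 2168 bp.

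**Figure D2:**
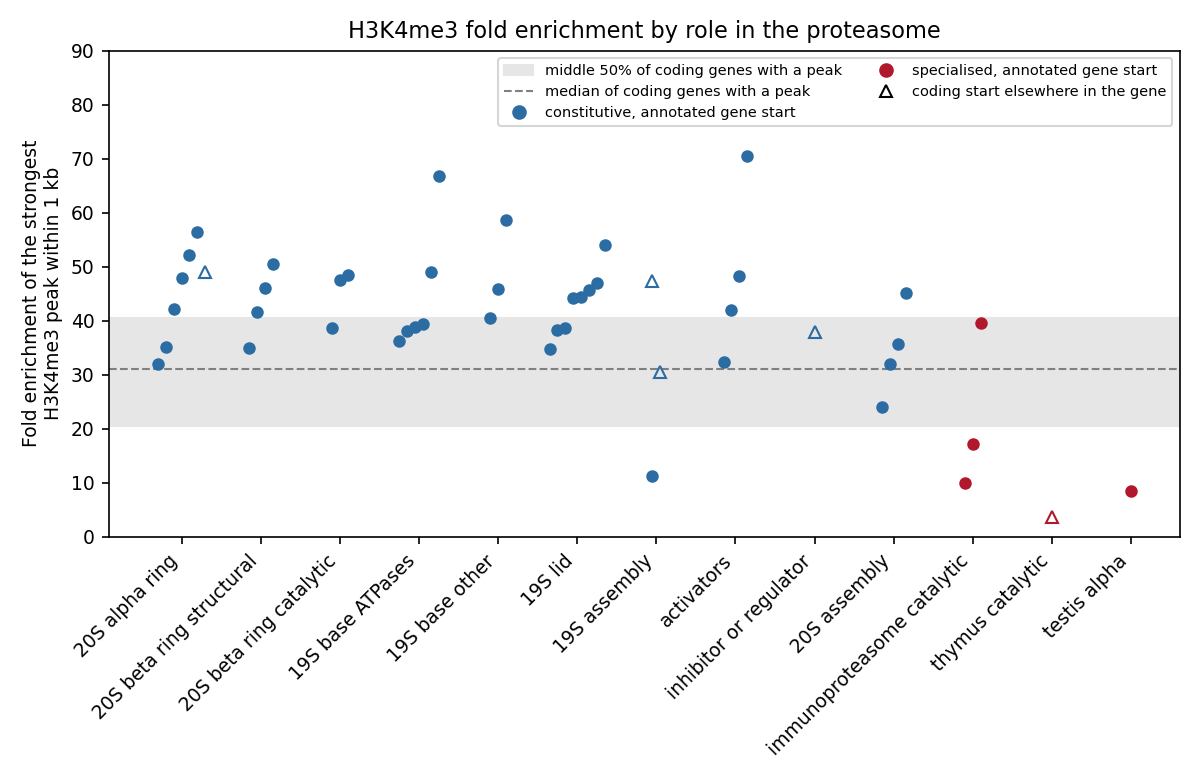
Fold enrichment of the strongest H3K4me3 peak within 1 Kb of the start (vertical axis, ratio) for each gene, grouped by role. Filled circles are peaks at the annotated gene start, open triangles are peaks at a coding start elsewhere in the same gene, and the grey band and dashed line are the middle 50% and the median of coding genes with a peak. Blue constitutive genes mostly sit above the median of 31.0, and 4 of the 5 red specialised genes sit below the middle 50%.

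In the alpha ring, 6 of 7 genes had an H3K4me3 peak at the gene start, all above the coding-gene median, and all 7 had an ATAC-seq peak. Psma2 was the highest at 56.4, above 96.6% of coding genes with a peak, and Psma5 the lowest at 32.1. The start of Psma2 lies 75 bp from that of Mrpl32, a mitochondrial ribosomal protein gene on the opposite strand, so its peak cannot be given to either gene alone. The same holds for Psma4, 208 bp from AY074887, and for Psma7 (52.2), 76 bp from Ss18l1, which encodes a chromatin remodelling subunit. Psma7 also had the widest ATAC-seq peak of the alpha ring, 1692 bp.

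The structural beta subunits Psmb1 to Psmb4 had folds from 35.0 at Psmb3 to 50.6 at Psmb4. Psmb1 had the widest H3K4me3 peak of all members, 4682 bp, at a fold of 41.6. Its annotated start lies 137 bp from that of Tbp, the TATA-binding protein gene, and its summit, the point of highest signal, lies 1607 bp inside Psmb1, while 2 other coding starts of Psmb1 are 1412 and 1453 bp inside the gene. The summit of Psmb1 is therefore nearer to these later starts than to the annotated one.

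The 3 constitutive catalytic subunits were alike in H3K4me3. Psmb5, with chymotrypsin-like activity, had a fold of 38.7 and a peak of 1887 bp; Psmb6, with caspase-like activity, 47.6 and 1826 bp; and Psmb7, with trypsin-like activity, 48.4 and 2244 bp. All 3 starts were inside an ATAC-seq peak, of 897, 718 and 820 bp. These genes served below as the counterparts of the specialised catalytic subunits. The promoters of Psmb5 and Psmb6 are printed because both hold the letters TGACNNNGC, the core of the antioxidant response element. The factors Nfe2l1 and Nfe2l2 bind this element, and through it Nfe2l1 is known to raise proteasome genes when the protease is inhibited. In RefSeq promoters the letters were about as frequent in constitutive genes (6 of 35, 17.1%) as in coding genes (15.1%). At ATAC-seq peak centres, windows added after seeing the data, they were found in 13 of 40 (32.5%, against 14.2%). Binding of either factor was not tested. Each printed promoter runs 5′ to 3′ on the gene's strand from 250 bases before to 50 after the RefSeq start (GRCm38.p6, the mm10 assembly). Capitals mark TGACNNNGC and, in Psmb6, also AAGATGGCG, a YY1 motif.
Psmb5 promoter, chr14:54617946-54618245, minus strand: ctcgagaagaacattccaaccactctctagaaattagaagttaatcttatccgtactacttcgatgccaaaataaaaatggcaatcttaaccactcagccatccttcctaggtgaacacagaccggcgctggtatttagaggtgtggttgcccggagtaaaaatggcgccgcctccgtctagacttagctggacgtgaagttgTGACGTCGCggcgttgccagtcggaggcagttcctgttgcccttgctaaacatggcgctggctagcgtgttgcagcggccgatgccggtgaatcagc
Psmb6 promoter, chr11:70525107-70525406, plus strand: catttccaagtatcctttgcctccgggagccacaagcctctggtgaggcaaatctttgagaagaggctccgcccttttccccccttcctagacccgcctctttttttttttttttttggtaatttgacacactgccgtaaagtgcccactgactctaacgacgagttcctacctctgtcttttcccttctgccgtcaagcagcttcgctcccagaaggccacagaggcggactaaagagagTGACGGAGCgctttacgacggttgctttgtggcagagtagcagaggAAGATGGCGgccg
In Psmb5 the TGACNNNGC match ran from position -47 to -39 of the start, and in Psmb6 from -9 to -1.

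The 19S base ranged widely. Among its 6 ATPases, which unfold the substrate, Psmc1 had a fold of 66.8, above 99.5% of coding genes with a peak, and Psmc5 had 36.2, with a group median of 39.1. The start of Psmc5 lies 75 bp from Ftsj3, a ribosomal RNA methyltransferase gene, and that of Psmc2 (49.0) 32 bp from Dnajc2, a ribosome-associated chaperone gene; the Psmc2 summit lay at -267 bp from the start, outside the gene. The scaffold subunit Psmd1 had 58.6, Psmd2 45.9 and the ubiquitin receptor Psmd4 40.5. In the lid, all 8 genes had both kinds of peak and folds above the coding-gene median, from 34.7 at Psmd13 to 54.0 at Psmd14, the deubiquitinase of the lid. The start of Psmd13 lies 341 bp from that of Sirt3, a mitochondrial deacetylase gene.

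Among the activators, Psme4 (PA200) had the highest fold of all members, 70.5, above 99.7% of coding genes with a peak, in a peak of 3565 bp. Psme1 was the lowest of the 4, at 32.4, in a peak of 1214 bp, the narrowest of the members' strongest peaks at annotated starts. The partner of Psme1 in the interferon-inducible 11S ring, Psme2, had 48.4, but its start is 595 bp from that of Rnf31, a ubiquitin ligase gene, and its summit lay at -846 bp from the start, outside Psme2. Psme3, the nuclear activator, had 42.0. The assembly chaperones of the 20S core were lower, with a median of 33.9, from 24.0 at Psmg4 to 45.1 at Psmg2. Psmg2 and Psmg3 have another coding start within 1 Kb (Cep76 at 263 bp and Gm26938 at 478 bp). The Psmg2 summit lay at -494 bp from the start, outside Psmg2.

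Psmc1 and Psme4, the 2 members with the highest folds, both hold CCGGAAG, the core that ETS factors bind, which is why their promoters are shown. The members next in fold held none in their RefSeq promoters. These were Psmd1 (58.6), Psma2 (56.4), Psmd14 (54.0), Psma7 (52.2) and Psmb4 (50.6). CCGGAAG or its reverse complement was found in 14 of the 35 constitutive genes with a RefSeq promoter (40.0%), against 13.6% of 15687 coding genes. Capitals mark CCGGAAG, TGACNNNGC and CCAAT on either strand, and the coordinates are those of GRCm38.p6.
Psmc1 promoter, chr12:100109952-100110251, plus strand: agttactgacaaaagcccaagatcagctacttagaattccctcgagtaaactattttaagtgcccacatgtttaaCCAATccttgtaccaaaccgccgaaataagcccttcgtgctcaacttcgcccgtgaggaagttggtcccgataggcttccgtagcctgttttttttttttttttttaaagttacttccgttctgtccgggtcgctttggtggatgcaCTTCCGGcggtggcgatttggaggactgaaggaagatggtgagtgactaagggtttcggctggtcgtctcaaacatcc
Psme4 promoter, chr11:30771525-30771824, plus strand: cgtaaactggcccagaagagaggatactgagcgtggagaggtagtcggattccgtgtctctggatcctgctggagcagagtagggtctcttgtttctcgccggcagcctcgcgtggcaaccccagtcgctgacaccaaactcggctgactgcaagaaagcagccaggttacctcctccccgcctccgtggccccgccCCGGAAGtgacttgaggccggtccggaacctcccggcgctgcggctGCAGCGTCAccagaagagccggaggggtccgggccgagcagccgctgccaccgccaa
The CCGGAAG match lay at -28 to -22 of the start in Psmc1, on the reverse strand, and at -53 to -47 in Psme4. A match of letters is a description of the sequence and says nothing of whether a factor was bound.

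In addition to those shown, CCGGAAG was found in Psma6, Psmc2, Psmc6, Psmd2, Psmd4, Psmd6, Psmd11, Psmd12, Psmd13, Psme3, Psmg1 and Psmg3. Of the constitutive Psmb genes, only Psmb3, Psmb4, Psmb5 and Psmb6 had a RefSeq promoter, and none of these held it. They are too few for a comparison. TGACNNNGC was found in 6 of 35 constitutive genes (17.1%), against 15.1% of coding genes, and these were Psmb5, Psmb6, Psmc6, Psmd9, Psmd12 and Psme4. GAAANNGAA, a core of interferon response elements, was found in 7 (20.0%, against 9.47%), CCAAT in 11 (31.4%, against 41.7%), TTCNNNGAA, the palindrome of STAT factors, in 2 (5.71%, against 9.05%) and TATAAA in 3 (8.57%, against 14.4%). GCGCATGCG, bound by nuclear respiratory factor 1, and AAGATGGCG were each found in 2 (5.71%), against 2.76% and 2.24%. All motifs were searched on both strands. Some of these shares changed with the window searched, and CCAAT and TTCNNNGAA changed sides of the background. In 300 bases at the centre of the widest ATAC-seq peak within 1 Kb, CCGGAAG was found in 9 of 40 constitutive genes (22.5%, against 14.4% of 15014 coding genes) and TGACNNNGC in 13 (32.5%, against 14.2%). The 9 genes with CCGGAAG there did not include Psmc1 or Psme4 but did include Psmb7. In the same windows CCAAT was found in 14 (35.0%, against 28.5%), TTCNNNGAA in 3 (7.5%, against 4.76%) and GAAANNGAA in 5 (12.5%, against 4.68%). GCGCATGCG and AAGATGGCG were each found in 2 (5.0%, against 2.01% and 2.82%), and TATAAA in 0, against 3.34%. No entry of the RefSeq promoter table was matched for Psma8, Psmb1, Psmb2, Psmb7, Psmc3, Psmd3, Psmd7 and Psmg2.

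Constitutive members without a peak at the annotated start had one at a coding start further downstream. The annotated start is the 5′ end of the gene over all its transcripts, and at Psmd5 and Psmd9 it is not the start of a coding transcript. At Psma6 (chr12:55384222-55418454) the nearest H3K4me3 peak was 6382 bp from that end and an ATAC-seq peak of 182 bp lay 195 bp away. Another coding start 14553 bp downstream carried a fold of 48.96 in a peak of 2563 bp, close to the values of the other alpha subunits. At Psmf1 (chr2:151715812-151744186), which encodes the proteasome inhibitor PI31, the nearest H3K4me3 peak was 2272 bp and the nearest ATAC-seq peak 2687 bp from the gene start, and the coding start 2876 bp downstream had a fold of 37.9. At Psmd9 (chr5:123169413-123250131), a chaperone of 19S assembly, these distances were 2451 and 2001 bp, and the coding start 58777 bp downstream had 30.5.

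Psmd5 (chr2:34849734-34874968), the other chaperone of 19S assembly, had the lowest fold of the constitutive genes, 11.3 in a peak of 1217 bp, with its start 413 bp outside the nearest ATAC-seq peak and 572 bp from the start of Cutal. A coding start of Psmd5 4006 bp downstream had 47.4 in a peak of 2598 bp. With any coding transcript start allowed, all 47 members had an H3K4me3 peak (background 69.3%) and all 47 an ATAC-seq peak (background 75.2%). The lowest constitutive fold was then 24.0, at Psmg4, and the median 43.2 (n = 42), against 9.98 in the specialised members (n = 5) and 31.2 in 14411 coding genes.

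**Figure D3:**
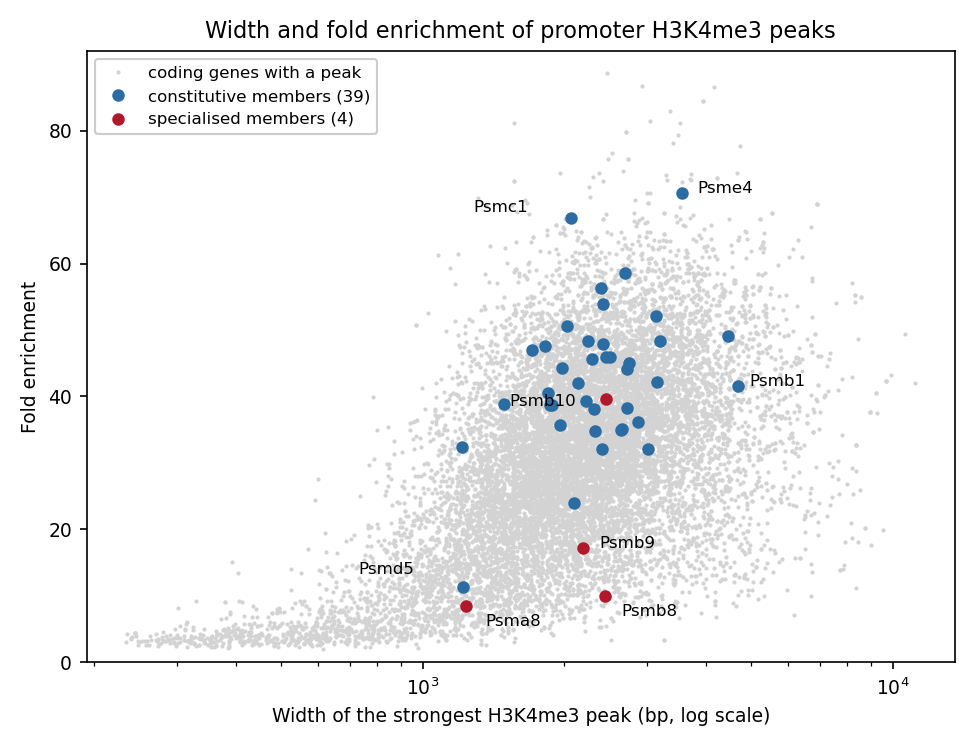
Width of the strongest H3K4me3 peak within 1 Kb of the start (horizontal axis, bp, log scale) against its fold enrichment (vertical axis, ratio). Grey points are coding genes with a peak, blue points the 39 constitutive and red points the 4 specialised members. Psmb8 and Psmb9 have widths of 2449 and 2198 bp, in the middle of the constitutive genes, at folds of 9.98 and 17.2, whereas Psma8 and Psmd5 are both narrow and low.

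The immunoproteasome subunits Psmb8 and Psmb9 were marked and open, at low enrichment. Psmb8 (chr17:34197721-34201454) had a fold of 9.98 in a peak of 2449 bp, above 8.84% of coding genes with a peak, where its counterpart Psmb5 had 38.7 in 1887 bp. Psmb9 (chr17:34181987-34187764) had 17.2 in 2198 bp, above 18.99%, where its counterpart Psmb6 had 47.6 in 1826 bp. The ATAC-seq peaks at both starts, of 780 and 882 bp, were of a width like those of the counterparts (897 and 718 bp). These genes were therefore low in H3K4me3 fold and not in the width of either peak.

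Both genes lie in the MHC class II region, in the order Psmb9, Tap1, Psmb8 and Tap2, where Tap1 and Tap2 encode the transporter that carries peptides into the endoplasmic reticulum. Psmb9 is on the minus strand and the others on the plus strand. The annotated starts of Psmb9 and Tap1 are 211 bp apart, their first stretches overlap, and a single H3K4me3 peak and a single ATAC-seq peak cover both, so the fold of 17.2 cannot be given to either gene alone. The peak at Tap2 had a fold of 21.9, and 2 weak peaks of 2.19 and 3.34 lay inside Tap1. The strongest peak of the stretch was thus the one near Tap2, below the constitutive median of 42.25.

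**Figure D4:**
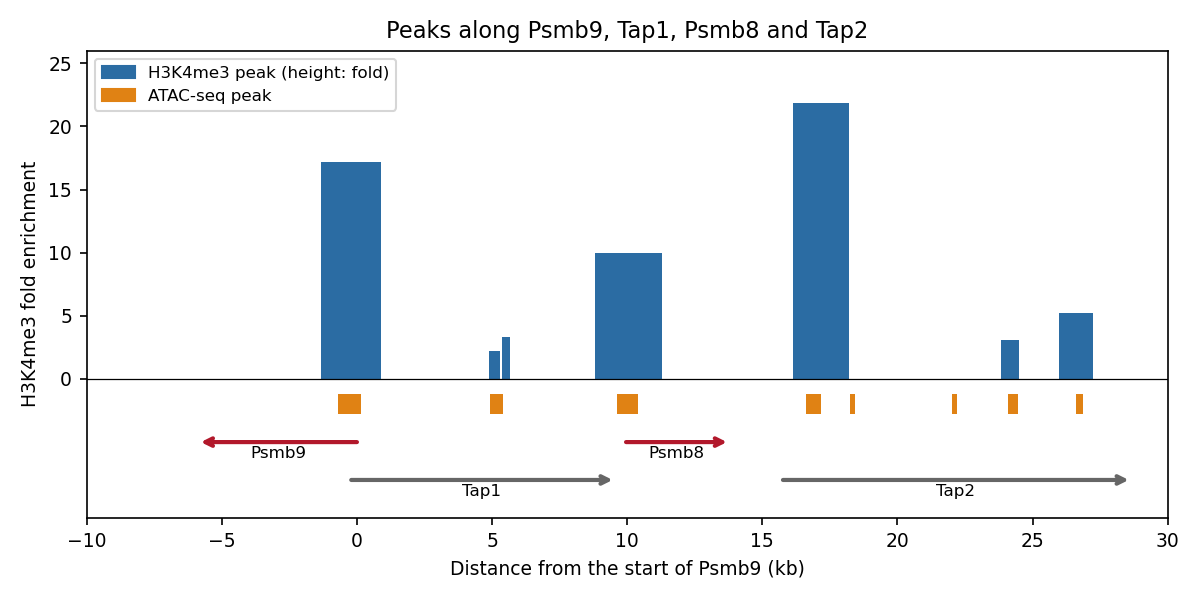
Distance from the start of Psmb9 (horizontal axis, Kb) along Psmb9, Tap1, Psmb8 and Tap2. Blue bars are H3K4me3 peaks with their fold enrichment as height (vertical axis, ratio), orange bars are ATAC-seq peaks, and arrows are genes in their direction of transcription. The peak shared by Psmb9 and Tap1 reaches 17.2, that of Psmb8 9.98 and that of Tap2 21.9.

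The promoters of Psmb8 and Psmb9 are shown to set them beside those of Psmb5 and Psmb6. Capitals mark TATAAA and TTCNNNGAA in Psmb8 and CCAAT, on the reverse strand, in Psmb9 (GRCm38.p6). Their RefSeq starts lie 474 and 434 bp inside the GENCODE gene.
Psmb8 promoter, chr17:34197945-34198244, plus strand: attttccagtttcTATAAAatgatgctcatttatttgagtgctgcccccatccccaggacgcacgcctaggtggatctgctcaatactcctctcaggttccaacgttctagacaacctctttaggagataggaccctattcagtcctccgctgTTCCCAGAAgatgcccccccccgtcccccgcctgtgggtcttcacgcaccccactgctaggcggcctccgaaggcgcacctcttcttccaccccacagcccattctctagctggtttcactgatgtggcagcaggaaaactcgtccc
Psmb9 promoter, chr17:34187281-34187580, minus strand: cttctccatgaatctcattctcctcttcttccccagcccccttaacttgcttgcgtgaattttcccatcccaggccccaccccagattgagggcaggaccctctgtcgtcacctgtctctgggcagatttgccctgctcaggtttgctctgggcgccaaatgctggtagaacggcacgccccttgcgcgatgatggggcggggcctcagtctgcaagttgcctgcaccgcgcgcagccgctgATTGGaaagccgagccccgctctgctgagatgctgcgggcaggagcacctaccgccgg
In Psmb8, TATAAA lay at -237 to -232 of the RefSeq start and TTCNNNGAA at -97 to -89, and in Psmb9 the CCAAT match lay at -8 to -4. TGACNNNGC, CCGGAAG and GAAANNGAA were matched in neither window. Each was found in 0 of the 4 specialised genes with a RefSeq promoter, too few to set against 15.1%, 13.6% and 9.47% of coding genes. At ATAC-seq peak centres TGACNNNGC was found in 2 of 5 specialised members, Psma8 and Psmb10 (40.0%, against 32.5% of constitutive members). CCGGAAG was found there in 1 of 5, Psmb10 (20.0%, against 22.5%), and GAAANNGAA in 0 of 5 (against 12.5%).

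Psmb10 differed from the other specialised members. The gene (chr8:105935735-105938444, minus strand) had a fold of 39.6 in a peak of 2462 bp, above 73.1% of coding genes with a peak and above 17 of the 42 constitutive members by their strongest start, where its counterpart Psmb7 had 48.4 in 2244 bp. Its peak lay almost wholly inside the gene. It reached 4 bp upstream and 2457 bp downstream, and the summit was 1184 bp inside the gene, against a median offset of 233 bp in constitutive members with a peak and 215 bp in all coding genes with one. Among the other specialised members the summit lay 748 bp inside Psmb8, 64 bp inside Psmb9 and 163 bp inside Psma8. In the constitutive Psmb1 it lay further in, at 1607 bp.

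The start of Psmb10 was also outside an ATAC-seq peak. The nearest one, 167 bp wide, began 174 bp inside the gene, and the wider one, 775 bp, ran from 982 to 1756 bp inside it. The wider peak covers the starts of 3 annotated non-coding transcripts of Psmb10, at 1406, 1417 and 1419 bp inside the gene, whereas the coding transcript begins at the annotated start. The summit of H3K4me3 thus fell in the wider ATAC-seq peak. The promoter at the annotated start and 300 bases at the centre of that peak are printed to compare them (GRCm38.p6), with capitals for CCGGAAG and TGACNNNGC, the latter on the reverse strand. This second window was chosen after its peak had been seen.
Psmb10 promoter, chr8:105938343-105938642, minus strand: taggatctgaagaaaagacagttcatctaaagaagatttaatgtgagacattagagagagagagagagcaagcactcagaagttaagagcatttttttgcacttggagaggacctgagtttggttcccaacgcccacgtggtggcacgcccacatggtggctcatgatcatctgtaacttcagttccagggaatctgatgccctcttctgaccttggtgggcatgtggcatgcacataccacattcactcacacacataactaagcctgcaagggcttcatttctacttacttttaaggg
Psmb10 ATAC-seq peak centre, chr8:105936926-105937225, minus strand: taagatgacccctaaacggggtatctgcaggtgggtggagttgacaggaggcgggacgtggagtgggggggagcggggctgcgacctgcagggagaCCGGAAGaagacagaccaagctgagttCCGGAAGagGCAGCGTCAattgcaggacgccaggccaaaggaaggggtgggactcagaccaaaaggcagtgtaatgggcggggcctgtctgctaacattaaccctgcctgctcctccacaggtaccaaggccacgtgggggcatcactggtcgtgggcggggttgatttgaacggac
The promoter window held none of the 8 motifs and had a CpG observed/expected ratio of 0.192. The window at the ATAC-seq peak held CCGGAAG at bases 97 to 103 and 124 to 130 and TGACNNNGC at 133 to 141 of the printed run, with a CpG ratio of 0.540.

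Psmb11 had no H3K4me3 peak within 1 Kb of its annotated start (chr14:54621433-54629556), where an ATAC-seq peak of 291 bp began 386 bp inside the gene. The nearest H3K4me3 peak, 3036 bp away, was the one at Psmb5, whose start is 3411 bp from that of Psmb11 on the other strand. A second coding start 3877 bp downstream was covered by an ATAC-seq peak of 669 bp and lay 146 bp from an H3K4me3 peak of 479 bp with a fold of 3.73, higher than at 1.63% of coding genes with a peak. Psmb5 and Psmb11 were thus neighbours with folds of 38.7 and 3.73. The promoter of Psmb11 is the RefSeq one, at that second start (GRCm38.p6), and capitals mark CCAAT at -155 to -151.
Psmb11 promoter, chr14:54625060-54625359, plus strand: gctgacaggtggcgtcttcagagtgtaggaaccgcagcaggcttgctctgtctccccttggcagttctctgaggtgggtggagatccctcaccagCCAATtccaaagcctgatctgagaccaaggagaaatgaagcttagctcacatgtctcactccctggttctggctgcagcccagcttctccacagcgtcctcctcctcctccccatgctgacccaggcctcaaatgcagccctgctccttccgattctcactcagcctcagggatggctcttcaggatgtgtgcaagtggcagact
It held no TGACNNNGC, CCGGAAG or GAAANNGAA. Foxn1, the regulator of thymic epithelium, had a fold of 3.65 in a peak of 240 bp and no ATAC-seq peak.

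Psma8 had the lowest fold of the members at an annotated start, 8.49 in a peak of 1238 bp, above 7.19% of coding genes with a peak, where its counterpart Psma7 had 52.2 in 3144 bp. Its summit lay 163 bp downstream and its start was inside an ATAC-seq peak of 679 bp, narrower than the 1692 bp at Psma7. Of 3 testis markers, Sycp1 had 5.88, and Tnp1 and Prm1 had no peak of either kind. The 4 specialised members other than Psmb10 had folds below that of every constitutive member once each gene was taken at its strongest start, 17.2 or less against 24.0 or more.

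**Figure D5:**
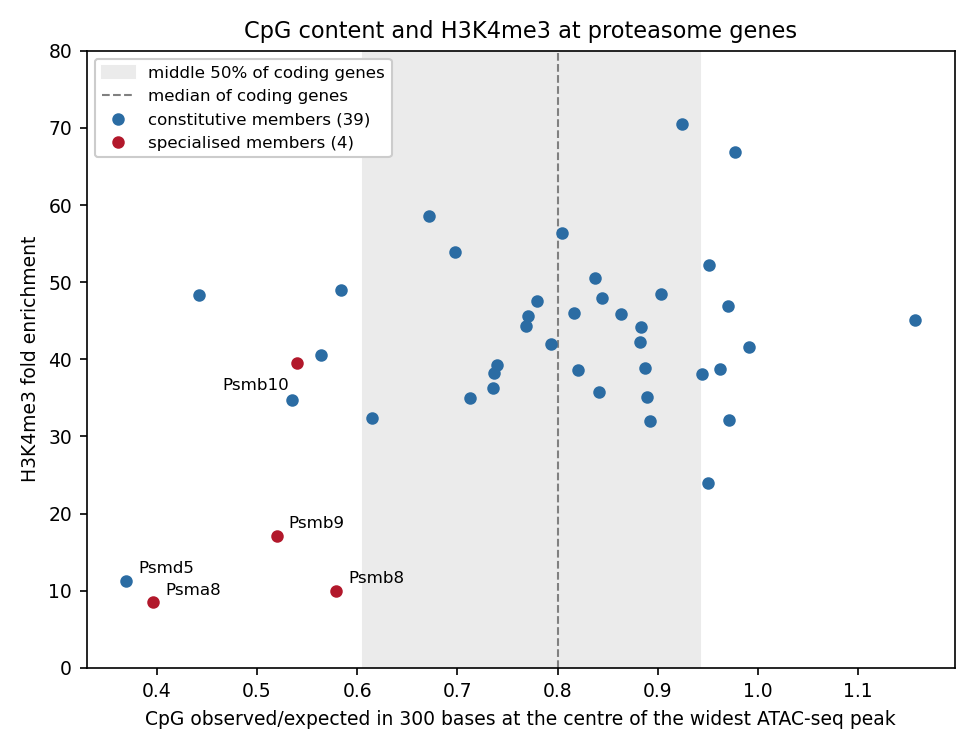
CpG observed/expected ratio in 300 bases at the centre of the widest ATAC-seq peak within 1 Kb (horizontal axis) against H3K4me3 fold enrichment at the annotated start (vertical axis, ratio). Blue points are the 39 constitutive and red points the 4 specialised members with both peaks, and the grey band and dashed line are the middle 50% and the median of coding genes with an ATAC-seq peak. The 4 red points lie left of the band, at 0.397 to 0.579, and Psmb10 is the one among them with a high fold.

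CpG content was lower at the specialised genes, with overlap. In 300 bases at the centre of the widest ATAC-seq peak, the CpG observed/expected ratio had a median of 0.829 in 40 constitutive members (range 0.111 to 1.16), 0.520 in the 5 specialised members (0.250 to 0.579) and 0.800 in 15014 coding genes (middle 50% 0.606 to 0.943). The ratio was 0.579 at Psmb8 against 0.963 at Psmb5, 0.520 at Psmb9 against 0.779 at Psmb6, 0.540 at Psmb10 against 0.904 at Psmb7, 0.397 at Psma8 against 0.951 at Psma7, and 0.250 at Psmb11 against the same Psmb5 value. Each specialised gene was thus lower than its counterpart. Constitutive members that overlapped them included Psma6 at 0.111, Psmd5 at 0.369 and Psme2 at 0.442. The windows of Psma6 and Psmd5 lie in ATAC-seq peaks of 182 and 215 bp near the annotated start. In RefSeq promoters near their downstream coding starts the ratios were 0.697 and 0.864. The Psmb11 window also lies near the annotated start, and the RefSeq promoter at its second coding start had a ratio of 0.1655. Over RefSeq promoters, where a gene can have more than 1, the median was 0.787 in 38 promoters of 35 constitutive genes. It was 0.357 in 4 promoters of 4 specialised genes and 0.601 in 19174 promoters of 15687 coding genes.

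The mark lay mostly downstream of the start. The summit lay downstream of the start in 36 of 39 (92.3%), against 85.1% of coding genes, and in all 4 specialised members with a peak. The H3K4me3 peak reached a median of 765 bp upstream and 1511 bp downstream, against 684 and 1389 bp in coding genes. In 3 constitutive members, Psmc4, Psmd3 and Psmd8, the window held more than 1 H3K4me3 peak, against 6.6% of coding genes with a peak, and at Psmd8 the stronger one began 57 bp downstream of the start. Between 1 and 20 Kb from the start lay a median of 5 ATAC-seq peaks in constitutive members, 6 in specialised members and 4 in coding genes.

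Another coding start lay within 1 Kb in 12 of 47 members (25.5%), against 12.9% of coding genes, and in 11 of the 12 it was on the opposite strand, as in 84.9% of coding genes with such a neighbour. Of the 12, 11 were constitutive and the other was Psmb9. The constitutive genes with no such neighbour had H3K4me3 in 28 of 31, against 62.3% of coding genes with none, and ATAC-seq in 29 of 31, against 68.8%.

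Other gene groups give a scale for these values. The 72 autosomal genes of cytosolic ribosomal proteins had H3K4me3 at 71 and a median fold of 46.0, in wider peaks (median 3914 bp), and the 34 genes of mitochondrial complex I had H3K4me3 at all 34 and a median of 34.7 (2189 bp). The constitutive proteasome genes were between them in fold and nearer to complex I in width. Of 26 genes that work with the proteasome, such as ubiquitin genes, shuttle factors and regulators, all had H3K4me3 and 25 an ATAC-seq peak, with a median of 42.0 and 22 above the coding-gene median. They included Pomp, the chaperone of 20S assembly, at 55.8, Adrm1, a ubiquitin receptor, at 61.6, Nfe2l1 at 33.2 and Nfe2l2 at 30.4. Read at the annotated gene start, the lowest of the 26 was Usp14, at 2.58 in a peak of 363 bp. It was the gene without an ATAC-seq peak there. Other coding starts were not examined for the groups of this paragraph, Usp14 included. Paaf1 was also planned for this list but was not found by that symbol. Of 12 genes of antigen presentation, which are regulated with the immunoproteasome, 11 had H3K4me3 and 4 were above the coding-gene median, with a median of 24.1. B2m, the light chain of MHC class I, had 23.1 and Nlrc5, its transcriptional activator, 12.4, whereas Ciita, the activator of MHC class II, had neither peak.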

How the data were processed

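Deposited peak lists of both assays were used, for F123 cells on mm10. The H3K4me3 list was made by the authors with ENCODE's uniform pipeline for histone ChIP-seq, run with its defaults, and the aligner and threshold are not given in the sources used here. Its deposited columns hold a fold enrichment (a ratio over background), −log10 of the q-value, and summits; its p-value column was not used. The ATAC-seq list holds positions only, which the authors made by mapping in Bowtie (1.1.2), duplicate removal in SAMtools and peak calling in MACS2 (2.1.1.20160309), with overlaps in bedtools (2.27.1), moving read ends toward the fragment centre for the Tn5 insertion and keeping pooled peaks found in both replicates (2 per list). Reads of both parental genomes were mapped to a single reference, with no count or depth in the lists.

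Peaks were set against gene starts of GENCODE M21, within 1000 bp and with an overlap of at least 1 bp, in Python 3.11.15 with numpy 2.4.6 and pandas 2.3.3. The strongest peak is that with the highest fold, and the percent of coding genes lower is over 13806 genes with a peak. Wilson intervals are at 95% and cover counting error only. Promoters of 39 of 47 members were matched by symbol in a RefSeq table (GRCm38.p6), and 500 of 500 promoters compared with the genome were identical. CpG observed/expected is the number of CG pairs times the length, over the product of the C and G counts. Genes named are the specialised members with their closest constitutive subunit, members lacking a peak, the highest and lowest of each role, and genes starting within 1 Kb of a member. For the remaining genes named, values were already known. The overlap counts were checked against bedtools 2.31.1 and on simulated peaks. Motif and CpG windows at ATAC-seq peak centres were added after seeing the data. The members and lists were chosen with earlier results of these data known. ChIP-seq inputs and PLAC-seq samples were not analysed here.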

Additional observations from a re-analysis of the deposited data

How the results depend on the processing

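The constitutive counts, 39 of 42 for H3K4me3 and 40 of 42 for ATAC-seq, stayed within 1.5 times under windows of 500 bp and 2 Kb, the start itself, any coding transcript start, stricter peaks and genes without a neighbouring start, and so did the specialised H3K4me3 count. Being near their maximum, the constitutive counts could hardly rise. Among genes without a neighbouring start they were 28 and 29 of 31, so there the rule compares counts over different numbers of genes. The specialised ATAC-seq count fell from 5 to 3 where the start itself had to lie in a peak, without Psmb10 and Psmb11. The constitutive median fold ranged from 42.13 to 43.22. The background moved more than its counting interval. The share of coding genes with H3K4me3, 66.35%, became 65.49% (500 bp), 67.66% (2 Kb), 62.36% (start itself), 69.26% (any start), 64.08% (fold of at least 5) and 62.32% (no neighbouring start). That with ATAC-seq, 72.16%, became 69.7%, 75.88%, 63.55% and 75.24% in the same order, 68.27% with the widest 50% of peaks and 68.78% with no neighbouring start. The median fold of coding genes, 30.99, became 31.58 (start itself), 31.64 (fold of at least 5) and 29.61 (no neighbouring start). The constructions differ in which genes and peaks they admit.

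No paired analysis was possible because each assay has a single list for 2 replicates and no test was made, and leaving out a replicate was not possible. Unknown depth, and a fold that is the peak caller's own, limit comparisons of strength between genes. The lists hold no measure of transcription.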

Other observations

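Genes with related names that the rule left out were read in the same way. Psmd10, which encodes the 19S chaperone gankyrin and lies on the X chromosome, had an H3K4me3 peak with a fold of 31.1 in 1822 bp and an ATAC-seq peak. Psmc3ip, a meiotic recombination cofactor named after Psmc3, had a fold of 29.2. Psme2b, a coding gene related to Psme2, had neither kind of peak within 1 Kb, and its nearest H3K4me3 peak was 73973 bp away. The 4 pseudogenes Psmb5-ps, Psmb6-ps, Psmb6-ps2 and Psmb7-ps2 had neither kind of peak. In near-identical copies such as these, reads that map to several places can be lost, and that was not tested.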
